A study of Mus musculus with 5 samples.

Results

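The 6 genes labelled as neural genes of line 21 derivatives (Nefl, Trh, Olig3, Bcl11a, Igf2bp3 and Hesx1) were read on 5 expression arrays of mouse embryonic stem (ES) cells and their derivatives. They were chosen by symbol with their levels on these arrays already known, each is represented by 1 probe, and they make up 6 of the 16032 genes named on the array. All cultures were male, of strain 129, and carried myr-Akt-Mer, an Akt fusion protein whose kinase activity 4-hydroxytamoxifen (4OHT) switches on. There was 1 array each for line 21 ES cells without 4OHT, line 21 ES cells with 1 µM 4OHT, Akt-spheres of line 21, Akt-spheres of line 42, and ES-like cells that were reverted from line 21 spheres on embryonic fibroblasts (MEFs). Akt-spheres are described in the labels as resembling primordial germ cells. They were induced and passaged on OP9 stromal cells in 1 µM 4OHT, which was started 3 days before induction, and the stroma was removed by a short plating step. For the reverted cells the labels give a transient 4OHT treatment on MEFs, and whether 4OHT was present at harvest is not stated. No ES cell array of line 42 was used here, and line and culture therefore cannot be told apart in the line 42 spheres. With 1 array per culture no difference has a replicate check, and because the members were chosen on these 5 arrays their values are given as a description without a test.

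The 6 genes have separate known roles. Nefl encodes the light neurofilament subunit, which together with its medium and heavy partners forms the filaments of axons. Trh encodes the precursor of thyrotropin-releasing hormone, a hypothalamic peptide that drives thyrotropin release from the pituitary. Olig3 is a basic helix-loop-helix (bHLH) transcription factor of dorsal neural tube progenitors. Bcl11a is a zinc-finger repressor of neurons and lymphoid cells that also silences embryonic globin genes in red cells. Igf2bp3 is an RNA-binding protein of embryonic and tumour cells and is not specific to neurons. Hesx1 is a homeobox repressor of the anterior neural plate and the pituitary primordium.

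The label groups line 21 spheres with reverted cells, and the 6 members did not follow that grouping. None of the 6 had both line 21 derivatives at least 2-fold above the other 3 arrays, a pattern found in 44 of 10589 genes tested (0.416%), and none had both at least 2-fold below them (0.897% of genes). Only Nefl was higher in both derivatives by any margin, with 1.48-fold between the line 21 spheres and ES cells without 4OHT (13.6% of genes had both derivatives above the rest). In contrast, for each of the 6 members a single array stood at least 2-fold above or below the other 4, as for 9.58% of genes. That array was the reverted cells for Nefl and Trh, which were also set apart by low line 42 spheres, the line 21 spheres for Olig3 and Bcl11a, and the line 42 spheres for Igf2bp3, which was low there, and Hesx1, which was high there. Over all genes, the reverted cells stood alone above in 1.1% and below in 0.661%, and for the other arrays these shares were 1.56% and 1.73% (line 21 spheres), 1.26% and 2.23% (spheres of line 42), 0.784% and 0.595% (with 4OHT, ES cells) and 0.151% and 0.217% (ES cells without 4OHT). The range over the 5 arrays reached at least 16-fold for all 6 members, against 2.13% of genes, which repeats what they were chosen for. Fold differences here and below are on the log2(intensity + 1) scale after each array was centred on its median, and they understate the change of dim probes.

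**Figure D1:**
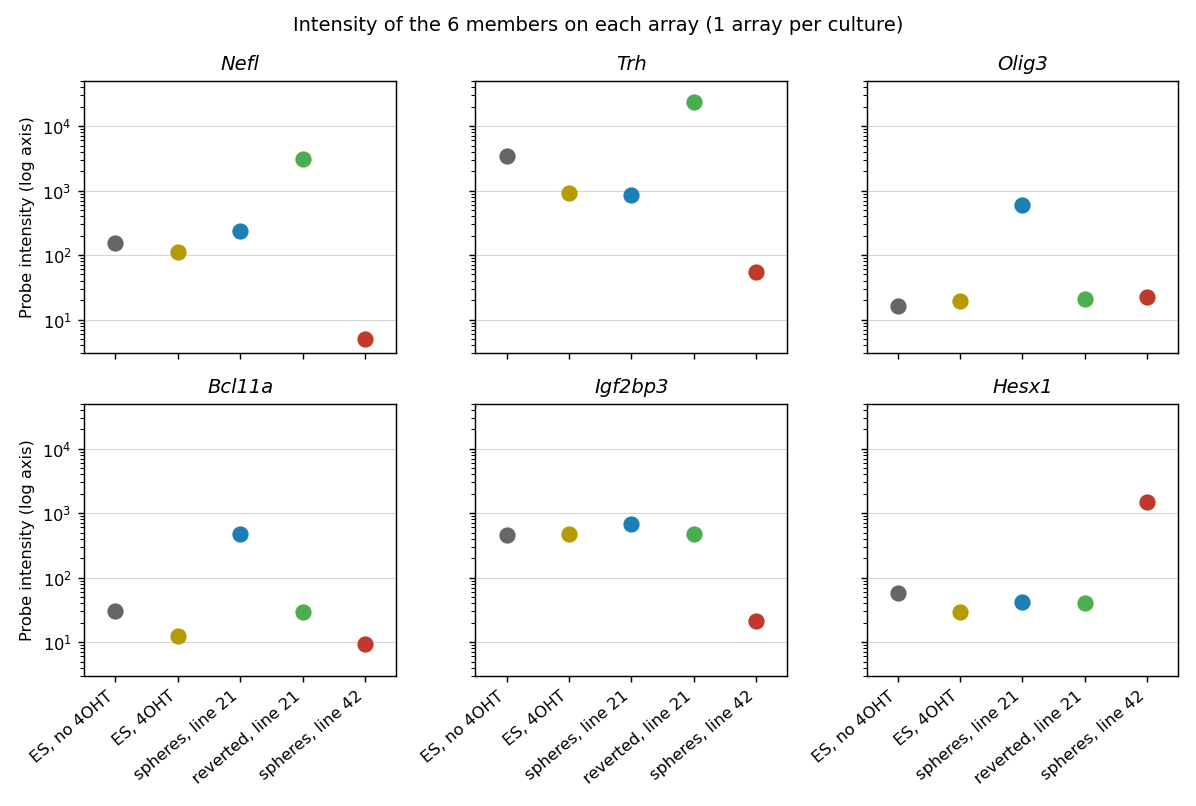
Probe intensity (log axis) of each member on the 5 arrays, 1 point per array and no error bars because each culture has 1 array. Nefl and Trh peak in reverted cells (3121 and 23511), Olig3 and Bcl11a in line 21 spheres (594 and 479), Hesx1 in line 42 spheres (1488), and Igf2bp3 is low only in line 42 spheres (21.0).

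Sequence just upstream of the transcription start was available from RefSeq (GRCm38.p6) for 5 of the 6 members, and all 5 are shown so that the pair that was high on the same array can be set beside members that stood apart on other arrays. Each run holds the 250 bases before the start, 5′ to 3′ on the gene's strand. Both strands were searched for 6 motifs, and capitals mark their matches, some of which appear as the reverse complement. They were the TATA box with the letters TATAAA, the GC box with GGGCGG, the homeodomain core with TAATTA, a POU-type motif with ATGCAT, a SOX-type motif with ACAAAG and the E-box with CACGTG. The first 2 runs belong to the pair that was high in line 21 spheres, the third to a gene high in reverted cells, the fourth to the gene low in line 42 spheres and the last to the gene high there.
Olig3, chr10:19356289-19356538, plus strand: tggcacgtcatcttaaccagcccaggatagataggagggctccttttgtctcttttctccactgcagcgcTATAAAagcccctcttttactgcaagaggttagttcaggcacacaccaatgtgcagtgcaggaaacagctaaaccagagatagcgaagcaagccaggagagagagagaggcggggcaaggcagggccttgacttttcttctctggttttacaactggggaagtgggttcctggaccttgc
Bcl11a, chr11:24080445-24080694, plus strand: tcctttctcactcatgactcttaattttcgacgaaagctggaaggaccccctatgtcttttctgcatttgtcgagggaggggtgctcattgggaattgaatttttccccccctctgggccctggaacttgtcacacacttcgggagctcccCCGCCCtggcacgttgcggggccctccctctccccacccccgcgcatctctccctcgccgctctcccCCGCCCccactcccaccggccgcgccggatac
Trh, chr6:92244651-92244900, minus strand: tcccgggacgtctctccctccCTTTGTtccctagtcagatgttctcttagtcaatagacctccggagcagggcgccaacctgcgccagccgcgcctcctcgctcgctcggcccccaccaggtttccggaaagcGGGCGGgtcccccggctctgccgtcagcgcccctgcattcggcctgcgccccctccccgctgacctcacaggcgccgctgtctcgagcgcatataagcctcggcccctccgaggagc
Igf2bp3, chr6:49214955-49215204, minus strand: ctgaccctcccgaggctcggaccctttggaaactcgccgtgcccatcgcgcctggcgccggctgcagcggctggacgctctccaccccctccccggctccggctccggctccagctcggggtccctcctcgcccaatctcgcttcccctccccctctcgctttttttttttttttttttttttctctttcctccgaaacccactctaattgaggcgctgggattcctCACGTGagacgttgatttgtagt
Hesx1, chr14:27000112-27000361, plus strand: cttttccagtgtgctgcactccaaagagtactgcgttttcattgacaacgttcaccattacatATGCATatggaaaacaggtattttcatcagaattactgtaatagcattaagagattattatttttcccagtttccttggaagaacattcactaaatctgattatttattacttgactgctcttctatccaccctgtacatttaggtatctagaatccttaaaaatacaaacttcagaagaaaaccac

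Olig3 and Bcl11a, which were high on the same array, shared none of the 6 motifs in this window. The Olig3 window held TATAAA once, at position -180 from the start, a motif found in 12.4% of the 32851 upstream windows. The Bcl11a window held the GC box at 2 positions and the Trh window at 1, as 32.7% of windows did at least once, and the Trh window also held the SOX-type letters (16.5% of windows). The Hesx1 window differed in base composition, with 34.0% G and C against 51.6% for Olig3, 62.0% for Bcl11a, 68.8% for Trh and a median of 52.4% over all windows, and it held the POU-type letters once (4.45% of windows). The Igf2bp3 window held CACGTG once (6.02% of windows). TAATTA was in none of the 5 windows and in 4.84% of all. These matches describe the letters and were not set against binding data.

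Nefl read 156 in ES cells without 4OHT, 112 with 4OHT, 239 in line 21 spheres, 3121 in reverted cells and 4.92 in line 42 spheres. Reverted cells stood far above every other array and line 42 spheres far below. The distance was 12.6-fold from reverted cells to the next highest array and 18.6-fold from line 42 spheres to the next lowest, and the whole range was 528-fold. The level in line 42 spheres lay close to the lowest values listed on the arrays (2.96 to 3.66), so this range depends on how far a dim probe can be read. The other 2 neurofilament genes did not share one pattern. Nefm, the medium subunit and the gene next to Nefl on chromosome 14 in the RefSeq gene order, read 98.0 in line 21 spheres and 143 in reverted cells, against 13.3 (ES cells without 4OHT), 10.15 (with 4OHT) and 11.3 (line 42 spheres). It therefore followed the grouping of the label, with a gap of 6.67-fold between the sides, or 2.74 log2 units, which became 1.92 with a pseudocount of 16. Nefh, the heavy subunit, read 107 without 4OHT, 73.6 with it, 25.9 in line 21 spheres, 87.3 in reverted cells and 15.5 in line 42 spheres, so it was lower in spheres of both lines. Ina, another neuronal filament gene, stayed between 344 and 661 on all 5 arrays. Dock5, on the other side of Nefl, was dim throughout (9.22 to 21.9).

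Trh read 3412 in ES cells without 4OHT, 904 with 4OHT, 862 in line 21 spheres, 23511 in reverted cells and 54.0 in line 42 spheres. Reverted cells were 6.43-fold above ES cells without 4OHT, the next highest array, and line 42 spheres 16.04-fold below ES cells with 4OHT, which lay within 1.01-fold of line 21 spheres. Trh was the only member whose level in line 21 spheres was at least 2-fold under that of ES cells without 4OHT (4.09-fold, with 12.5% of genes at least 2-fold lower). Trh was also the member nearest to Nefl in pattern, with a root mean square difference of 0.83 log2 units over the 5 arrays after each gene was set to its own mean. Among non-members, Nipsnap3a was nearest to both Nefl and Trh (1.12 log2 units from each), with 941 in reverted cells and 9.18 in line 42 spheres. Next came Erbin for Nefl (1.48) and Slc6a15, a neuronal amino acid transporter, for Trh (1.28). Genes that act on the Trh precursor or its peptide were read as a list. Of 12 such genes, 9 were on the array and 6 were bright enough to test, and none had reverted cells at least 2-fold above the other 4 arrays, as 1.1% of all genes did. Cpe, a carboxypeptidase that trims peptide hormones, read 114 (ES cells without 4OHT), 153 (with 4OHT), 92.3 in line 21 spheres, 136 in reverted cells and 18.9 in line 42 spheres, so it shared with Trh and Nefl only the low level in line 42 spheres. Pam, which amidates the peptide, ranged only from 62.9 to 74.9.

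Olig3 read 16.4 in ES cells without 4OHT, 19.5 with 4OHT, 594 in line 21 spheres, 21.1 in reverted cells and 22.1 in line 42 spheres. The line 21 sphere array was 26.7-fold above the next highest, and the other 4 arrays lay within 1.24-fold of each other. Those 4 values were below the 40th percentile of their arrays (28.6 to 29.3), so Olig3 entered the set of tested genes through line 21 spheres alone. Bcl11a read 30.3, 12.6, 479, 29.2 and 9.45 on the same arrays in the same order. Line 21 spheres were 14.8-fold above ES cells without 4OHT, and the reverted cells derived from them were 16.5-fold lower again, 1.11-fold below untreated ES cells. Both genes were thus high in line 21 spheres and at or near their ES cell level after reversion. The 2 patterns differed by 0.71 log2 units, and the closest non-member genes to Olig3 were Mgp (0.43) and Irx5 (0.51), an Iroquois homeobox gene. For Bcl11a they were Serf1 (0.69) and Crabp1 (0.69), a retinoic acid binding protein gene that read 1997 in line 21 spheres and 84.4 to 179 elsewhere.

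Mgp, a matrix protein gene placed among the stromal markers, read 328 in line 21 spheres, 4.84 and 5.21 in ES cells, 4.43 in reverted cells and 10.1 in line 42 spheres, and so rose on the same array as Olig3. Of the 15 genes in that OP9 stroma and mesenchyme list, 11 were tested and 3 were at least 2-fold higher in line 21 than in line 42 spheres: Mgp, Col1a2, a collagen chain (101 and 42.0), and the chemokine gene Cxcl12 (109 and 8.21). Tagln, a smooth muscle gene, was at least 2-fold lower (16 and 36.01). Over all 10589 genes tested, 810 were higher and 800 lower by this measure. Matrix genes of the list that were chosen after their values were seen were dim, with Lum at 11.9 to 26.3, highest in line 21 spheres, Dcn at 5.49 to 20.3 and Postn at 5.49 to 10.3. The summed intensity of the list was 1145 in line 21 spheres and 661 in line 42 spheres, against 1746 in ES cells without 4OHT, 1527 with it and 2299 in reverted cells, and the brightest probes carry most of such a sum. The part of stromal RNA in these values was not tested. In cell cultures read as a whole, a change in the share of cells that express a gene and a change in RNA per cell cannot be told apart.

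Genes related to Olig3 and Bcl11a by family or function were read beside them. In the list of neural bHLH and zinc-finger genes, none of 7 tested had line 21 spheres at least 2-fold above the other 4 arrays (1.56% of all genes did). The bHLH genes Olig1 and Olig2 read 7.63 to 26.5, and were lowest in line 21 spheres (8.74 and 7.63). Neurog2 and Neurod4, which drive neuronal differentiation, were listed only in line 21 spheres, at 29.4 and 12.8, and had no value on the other 4 arrays. Neurog3 read 169 in line 21 spheres, second to ES cells without 4OHT (292), and 8.42 in line 42 spheres. Neurod1 read 175 in line 21 spheres, 29.6 in line 42 spheres and 345 to 645 elsewhere. Bcl11b, the closest relative of Bcl11a, read 49.9 in line 21 spheres, 38.1 in line 42 spheres, 18.5 in reverted cells and 9.03 and 13.2 in ES cells, so it was higher in both sphere lines. Of the list of Bcl11a partners and globin regulators, 6 of 13 were tested and none stood at least 2-fold apart on line 21 spheres. Of all genes, 1.56% stood above and 1.73% below on that array.

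Igf2bp3 read 461 in ES cells without 4OHT, 482 with 4OHT, 689 in line 21 spheres, 481 in reverted cells and 21.0 in line 42 spheres. Line 42 spheres were 21.4-fold below ES cells with 4OHT, the nearest array, while the other 4 arrays, all of line 21, lay within 1.52-fold of each other. The difference therefore lay in the line 42 spheres and not in a rise of the line 21 derivatives. Its relative Igf2bp1 was not low there, with 1822 in line 42 spheres and 1143 to 1886 on the other arrays, and Igf2bp2 was at or under 6.46 wherever it was listed. Lin28a, another RNA-binding protein gene of embryonic cells, read 868 in line 42 spheres and 352 in line 21 spheres. Igf2, whose transcript gave the Igf2bp proteins their name, read 143 without 4OHT, 705 with 4OHT, 32.1 in line 21 spheres, 195 in reverted cells and 299 in line 42 spheres, which is another order again. Over this list none of the 11 tested genes had the line 21 derivatives 2-fold apart from the rest (0.416% of all genes were above and 0.897% below). The genes most like Igf2bp3 were Hs6st2, a heparan sulfate sulfotransferase (0.33 log2 units), and Bckdhb, of branched-chain amino acid breakdown (0.54), both low in line 42 spheres (3.82 and 28.4).

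Hesx1 read 57.3 in ES cells without 4OHT, 29.1 with 4OHT, 41.6 in line 21 spheres, 40.2 in reverted cells and 1488 in line 42 spheres. It went against the label, since it was high only in line 42 spheres, 23.8-fold above the next highest array, and the line 21 derivatives lay between the levels of the ES cell arrays. In the hypothalamus and pituitary list, none of 10 tested genes had line 42 spheres at least 2-fold above the other 4 arrays (1.26% of all genes did). Pomc, a pituitary and hypothalamic hormone precursor gene, was highest there (173, with 71.9 to 97.8 elsewhere), as was Fezf1, a forebrain zinc-finger gene (51.8, with 26.6 to 38.1 elsewhere). Otx2, an anterior homeobox gene that also marks primed epiblast, was lowest in line 42 spheres (146) and highest in reverted cells (1549), with 681 (ES cells without 4OHT), 263 (with 4OHT) and 634 (line 21 spheres). Six3 and Lhx4 were dim on all arrays (10.6 to 16.7), and Lhx3, a pituitary homeobox gene, was listed only in the spheres, at 4.96 (line 21) and 8.65 (line 42). In the list of Hesx1 partners and epiblast genes, none of the 11 tested genes had the line 21 derivatives 2-fold apart from the rest. Of all genes, 0.416% were above and 0.897% below by this rule. Fgf5, a growth factor of primed epiblast, was high in spheres of both lines (232 and 161) and in reverted cells (119), against 23.9 and 17.5 in ES cells. Lhx1, a LIM homeobox gene, read 76.1 and Lef1, a Wnt pathway factor, 71.6 in line 21 spheres, against 14.1 and 13.2 in line 42 spheres. The closest patterns to Hesx1 were those of Olfr106-ps (0.72 log2 units) and Cd8a (0.73), which read 181 and 309 in line 42 spheres.

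**Figure D2:**
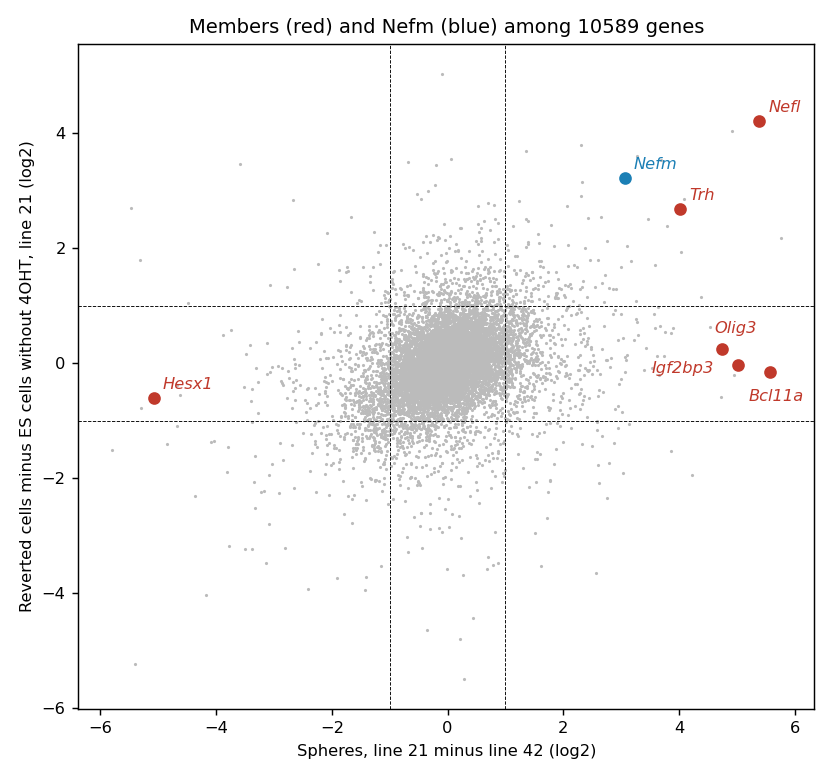
Each point is a gene, with the log2 difference between line 21 and line 42 spheres on the x axis and that between reverted cells and ES cells without 4OHT on the y axis; dashed lines mark 2-fold. Nefl, Trh and Nefm lie in the upper right, Olig3, Bcl11a and Igf2bp3 are shifted only along the x axis (4.74 to 5.57), and Hesx1 lies at -5.07 on it.

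All 6 members were at least 2-fold apart between the sphere lines. Line 21 spheres were at least 2-fold above line 42 spheres for 5 of the 6 members (7.81% of 9954 genes), by 42.0-fold for Nefl, 16.3-fold for Trh, 26.7-fold for Olig3, 47.6-fold for Bcl11a and 32.5-fold for Igf2bp3, but were 33.7-fold below them for Hesx1 (7.87% of genes were at least 2-fold below). The size of these folds rests on dim values in line 42 spheres, and with a pseudocount of 16 the log2 differences fell from 5.39 to 3.65 for Nefl, from 5.57 to 4.32 for Bcl11a, from 5.02 to 4.29 for Igf2bp3 and from 4.74 to 4.04 for Olig3. Line 42 spheres had the lowest value of the 5 arrays for 4 members. Among all 1541 genes with a range of at least 4-fold, 28.4% were lowest there. For Bcl11a this lowest value (9.45) was only 1.27-fold under that of ES cells with 4OHT (12.6). Both Bcl11a values were below the 40th percentile of their arrays. The sphere lines did not come to lie apart in the same way for each member. Relative to line 21 ES cells kept in 4OHT, line 21 spheres were at least 2-fold higher for Nefl (2.25-fold), Olig3 (30.9-fold) and Bcl11a (37.4-fold), as were 12.7% of genes. With a pseudocount of 16 the log2 differences fell from 4.95 to 4.18 for Olig3 and from 5.23 to 4.18 for Bcl11a. They were within 1.52-fold for Trh, Igf2bp3 and Hesx1. Line 42 spheres were lower than the same ES cells for Nefl, Trh and Igf2bp3 by 16.04-fold to 21.4-fold (11.2% of genes were at least 2-fold lower) and higher for Hesx1 by 50.7-fold (9.73%). These comparisons share the array of ES cells with 4OHT and are given side by side for that reason.

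Reverted cells were compared with the ES cells without 4OHT that they resemble by label. Nefl and Trh were 18.6-fold and 6.43-fold higher in reverted cells, where 5.18% of 9939 genes were at least 2-fold higher. Olig3 (1.19-fold), Bcl11a (1.11-fold), Igf2bp3 (1.03-fold) and Hesx1 (1.52-fold) differed by less than 2-fold. Against the line 21 spheres from which they came, reverted cells were 12.6-fold higher for Nefl and 26.3-fold for Trh (9.41% of 10034 genes at least 2-fold higher), and 27.9-fold lower for Olig3 and 16.5-fold lower for Bcl11a (7.58%). Klf4 and Zfp42, genes of the naive pluripotent state, read 1336 and 11370 in reverted cells, near the levels in ES cells without 4OHT (1573 and 14177), while line 21 spheres read 134 and 86.1. Of the 11 tested genes of the naive list, only Fgf4 was at least 2-fold apart between reverted cells and ES cells without 4OHT (124 and 278). Against ES cells with 4OHT, 8 of the 11 were at least 2-fold lower in line 21 spheres. Nanog (5523 and 3839), Prdm14 (205 and 121) and Tfcp2l1 (24.4 and 23.65) were not lower there. Over all 10589 genes tested, 1421 were at least 2-fold lower in that comparison.

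In ES cells, 3 members were lower with 4OHT than without. Trh was 4.15-fold, Bcl11a 2.52-fold and Hesx1 2.13-fold lower, where 2.4% of 9852 genes were at least 2-fold lower. Bcl11a (30.3 and 12.6) was a dim probe on both arrays. Nefl was 1.52-fold lower with 4OHT, and Olig3 and Igf2bp3 differed by 1.07-fold and 1.05-fold. None of the 6 was at least 2-fold higher with 4OHT (2.56% of genes were).

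**Figure D3:**
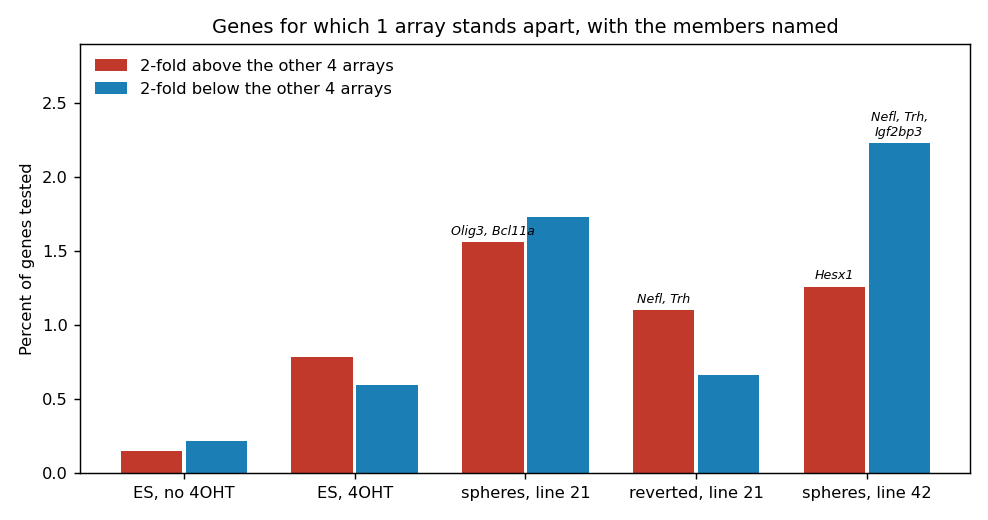
Percent of 10589 genes for which the named array stood at least 2-fold above (red) or below (blue) the other 4, with the members that belong to each bar written over it. The bars reach 1.56% and 1.73% for line 21 spheres and 1.26% and 2.23% for line 42 spheres, and the ES cells without 4OHT have the lowest bars.

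Other neural genes were read through 8 lists, for neural progenitors, neural bHLH and zinc-finger genes, neuronal cytoskeleton, synapse, hypothalamus and pituitary, Trh processing, dorsal neural tube and crest, and glia. Of their 135 genes beside the members, 113 were on the array and 64 were tested. The lists were chosen with earlier results of these data known. Both line 21 derivatives were at least 2-fold above the other arrays for 3 of the 64, Nes, Nefm and Msx1, and at least 2-fold below for 0. Over all 10589 genes tested these counts were 44 (0.416%) and 95 (0.897%). The median log2 difference between the sides was 0.08, against 0.01 over all genes. The limma test of the 2 derivatives against the other 3 arrays called 0 of 10589 genes at an adjusted p of 0.05 (Benjamini-Hochberg), with 1175 at an unadjusted p under 0.05 and a smallest adjusted p of 0.0661. Its spread includes the differences between the cultures on each side. Nes, an intermediate filament gene of neural progenitors, read 284 in line 21 spheres and 223 in reverted cells, against 45.55 to 81.3 on the other 3 arrays (mean difference, log2 2.13). Msx1, a homeobox gene of the dorsal neural tube and also of early mesoderm, read 337 and 178 against 28.2, 25.7 and 30.9 (mean difference, log2 3.08).

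Line 21 spheres held several progenitor genes at higher levels than line 42 spheres. In the progenitor list 5 of 10 tested genes were at least 2-fold higher in line 21 than in line 42 spheres and 1 was lower. Over all 10589 genes tested these counts were 810 and 800. The 5 were Nes, Fabp7, Zic2, Cdh2 and Pax6, and Notch1, a receptor of progenitor cells, was the lower one (102 and 284). Fabp7, a fatty acid carrier of radial glia, read 266 in line 21 spheres, 34.5 in line 42 spheres and 5.61 to 11.6 elsewhere. Zic2, a zinc-finger gene of the neural plate, read 413 and 158, and Cdh2, the neural cadherin also found in mesoderm, 428 and 88.6, with 352 in reverted cells. Pax6, a homeobox gene of the forebrain and eye, was low in both, at 24.0 and 3.21, and highest in ES cells without 4OHT (36.04). Of 12 tested neuronal cytoskeleton genes, 4 were at least 2-fold higher in line 21 than in line 42 spheres and 1 was lower. The higher genes were Nefm, Gap43 (106 and 45.4), Map1b (41.2 and 18.3) and Uchl1 (4389 and 2056), and the lower gene was Stmn2 (209 and 486). Against ES cells with 4OHT, 4 of the 12 were higher and 6 lower in line 21 spheres (1298 and 1421 of all 10589 genes tested). In line 42 spheres 1 was higher and 7 lower (1000 and 1152 of all genes tested). Mapt, a microtubule-binding protein of axons, read 52.4 and 62.3 in the spheres against 356 and 416 in ES cells and 644 in reverted cells. Dpysl3, a gene of axon growth, read 41.2 and 23.1 in spheres, 388 and 131 in ES cells and 402 in reverted cells. Tubb3, a neuronal tubulin, ranged from 171 in reverted cells to 601 in line 42 spheres. In the synapse list none of 8 tested genes was at least 2-fold apart between the sphere lines. Gad2 of that list was not tested, since it had no value on the ES cell arrays or in reverted cells. It read 68.5 in line 21 spheres and 46.9 in line 42 spheres. The glial markers Gfap and Aqp4 were at or under 6 where listed and were not tested. The 5 tested genes of the glia list were brighter. Slc1a3 read 79.2 in line 21 spheres, 49.8 in reverted cells and 25.9 to 46.9 elsewhere. Aldh1l1 was highest in line 42 spheres (138) and lowest in line 21 spheres (38.7), and Cnp was also lowest in line 21 spheres (31.0). Mbp ranged from 78.5 to 105 and S100b from 30.9 to 40.4.

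**Figure D4:**
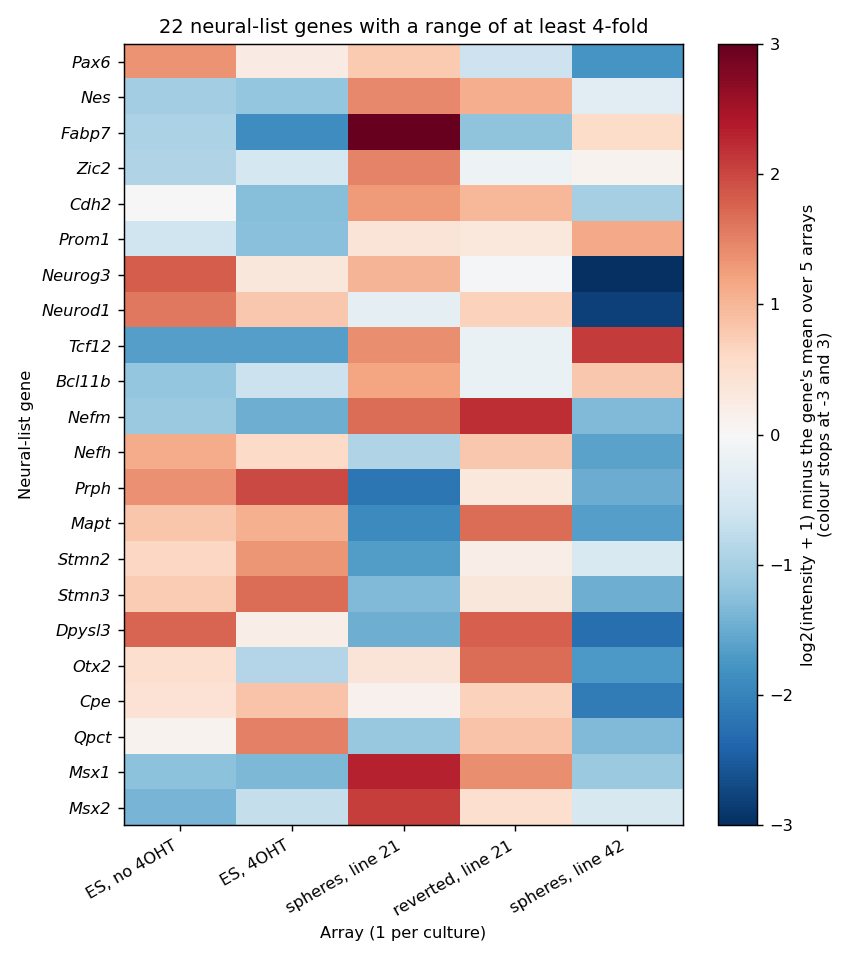
Colour gives log2(intensity + 1) minus the gene's own mean over the 5 arrays for the 22 tested genes of the neural lists, members left out, whose range was at least 4-fold. Red is high: 7 of the 22 are highest in line 21 spheres, 9 are lowest in line 42 spheres and 7 are lowest in ES cells with 4OHT.

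Over those 22 genes, 7 had their highest value in line 21 spheres, 5 on each of the ES cell arrays, 3 in reverted cells and 2 in line 42 spheres. Among all 1541 genes with a range of at least 4-fold, 22.6% were highest in line 21 spheres and 19.4% in line 42 spheres. These shares were 18.4% for reverted cells, 14.5% for ES cells without 4OHT and 25.0% for those with it. The lowest value was on the line 42 sphere array for 9 of the 22 and for 28.4% of the 1541. ES cells with 4OHT were lowest for 7 of the 22 and for 19.5% of the 1541. Line 21 spheres and ES cells without 4OHT were each lowest for 3 (27.7% and 8.50%), and reverted cells for 0 (15.9%). Among the listed neural genes whose highest array stood at least 2-fold apart, Nefl and Trh in reverted cells were accompanied by Otx2 (2.12-fold above the next highest array). Olig3 and Bcl11a in line 21 spheres were accompanied by Fabp7 (7.80-fold), Msx2 (3.09-fold), Zic2 (2.70-fold) and Six6 (2.07-fold), and Hesx1 in line 42 spheres by Notch1 (2.17-fold). These are 1, 4 and 1 of the 64 tested genes, against 1.1%, 1.56% and 1.26% of all genes on the same arrays.

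The grouping of the label was followed by genes of several kinds. The 10 non-member genes with the largest gap between the line 21 derivatives and the other 3 arrays were S100a4, Bgn, T, Chd3, Nefm, Msx1, Tm4sf1, Erbin, Pla2g7 and Flt1. S100a4, a calcium-binding protein of motile and mesenchymal cells, read 280 and 361 in line 21 spheres and reverted cells against 8.69 to 19.6 on the other 3 arrays. Bgn, a matrix proteoglycan, read 143 and 130 against 9.50 to 10.6. T, the brachyury factor of primitive streak mesoderm, read 193 and 305 against 15.4 to 22.6, and Flt1, a receptor for vascular growth factors, 112 and 140 against 20.8 to 32.4. Erbin, a scaffold protein gene, read 277 and 199 against 4.31 to 40.3, and Chd3, a chromatin remodeller, 3301 and 1747 against 202 to 225. In the mesoderm list T was the only one of 6 tested genes past the 2-fold rule between the sides (0.416% of all genes were above and 0.897% below). Against ES cells with 4OHT, 5 of the 6 were at least 2-fold higher in line 21 spheres and 3 in line 42 spheres. Over all 10589 genes tested these counts were 1298 and 1000.

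Markers of other cell types were read beside the members. The blood and endothelium list (4 of 10 tested) and the primitive endoderm list (4 of 10 tested) had 0 genes past the 2-fold rule between the sides. Of all genes, 0.416% were past it above and 0.897% below. Ptprc, a pan-leukocyte gene, was at or under 10.4 where listed, and Afp, an endoderm gene, was listed only in line 21 spheres (4.93). Some tested genes of these lists were brighter. Gata2 read 181 and 183 in line 21 and line 42 spheres and 16.7 to 43.1 elsewhere, and Trf 125 and 182 in them and 21.1 to 38.6 elsewhere. Pecam1 (284) and Gata6 (165) were highest in ES cells with 4OHT. The stromal list had 0 of 11 genes past the 2-fold rule between the sides. Its summed intensity was highest in reverted cells, the culture grown on MEFs, where Nefl and Trh were also highest. There Tagln read 665, Vcam1 28.9 and Col1a1, a collagen chain, 36.03, against 148, 9.66 and 18.6 in ES cells without 4OHT. Dcn, a matrix proteoglycan of fibroblasts, was too dim to be tested and nearly level between these arrays (20.3 and 18.8). Other genes of the list were lower in reverted cells, with Thy1 at 230 against 464 and Pdgfrb at 90.0 against 103. Of its 11 tested genes, 2 were at least 2-fold higher in reverted cells than in ES cells without 4OHT and 1 was lower. Over all 10589 genes tested these counts were 523 and 644. The part of feeder RNA in the reverted cell values was not tested. Genes next to the members in the RefSeq order were read too. Of the genes beside Olig3, Ifngr1, an interferon receptor gene, read 187 in line 21 spheres and 70.6 to 118 elsewhere, and Tnfaip3, an inhibitor of NF-kappaB signalling, 231 and 217 to 320. Those beside Trh were dim, with Rbsn at 24.9 and Prickle2 at 10.7 in reverted cells. Of those beside Bcl11a, Papolg read 131 in line 21 spheres and 124 to 165 elsewhere, and Fancl 912 and 850 to 1578. Of those beside Hesx1, Appl1 read 175 in line 42 spheres and 103 to 134 elsewhere, and Il17rd 39.9 and 25.7 to 52.9. Of those beside Igf2bp3, Malsu1 read 909 in line 42 spheres and 779 to 919 elsewhere, and Tra2a 1378 and 1506 to 2708.

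Fold differences were taken only within a gene, since probes differ in brightness for the same amount of RNA. The summed intensity of the stromal list and the description of genes as dim or brighter do compare probes, and carry that limit. With so few arrays the precision of the differences is unknown.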

How the data were processed

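Gene expression was measured on 5 one-colour arrays. The authors deposited linear probe intensity, with array medians of 49.995 to 50.015 over 22871 probes. Per the labels' protocols, RNA was amplified with amino allyl nucleotides and coupled to Cy5. How the arrays were scanned and normalized, and why 1392 to 2084 probes per array are empty, is not given in the sources used here. Of all probes, the 16264 probes with 1 gene symbol in the platform annotation gave 16032 genes after 3787 symbols were updated through RefSeq (GRCm38.p6), with the brightest probe kept for each gene. The deposited values were taken to log2(intensity + 1), with array medians set equal (shifts of -0.08 to 0.06). Tested genes had no empty cell in the comparison and lay at or above the 40th percentile of at least 1 array. Differences between single arrays were counted at 2-fold. The test of line 21 spheres and reverted cells against the other 3 arrays used limma 3.58.1 in R 4.3.3 with 3 residual degrees of freedom, and was tested on simulated data. The members and the 16 gene lists were chosen with earlier results of these data known. Named genes are the members, the 10 and 5 genes with the largest gaps either way, the 2 nearest in pattern to each member, list genes past the 2-fold rule or otherwise up to 3 with the largest difference, and stromal genes apart between the sphere lines. Other list genes, the neighbours of members and relatives by family were named after their values were seen. Promoter sequences come from a RefSeq table and were searched for 6 motifs. The rule that 1 array stands apart from the other 4, and some settings of the comparisons between single arrays, were added after seeing the data.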

Additional observations from a re-analysis of the deposited data

Results flagged for a closer look

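For 4 members the log2 differences of the spheres from ES cells with 4OHT had opposite signs in the lines, and the difference between the lines was not tested because each line has 1 sphere array and both share the ES cell array. For Nefl the log2 difference from these ES cells was 1.17 in line 21 spheres and -4.22 in line 42 spheres, which puts the lines 5.39 apart. For Bcl11a the values were 5.23 and -0.35 (5.57 apart), so nearly all of the distance lay on the line 21 side. Its line 42 value compares 2 dim readings, 9.45 in line 42 spheres and 12.6 in ES cells with 4OHT. Both were below the 40th percentile of their arrays, so the sign of that value is not settled. For Igf2bp3 they were 0.60 and -4.42 (5.02 apart) and for Trh 0.02 and -4.00 (4.02 apart), so most of it lay on the line 42 side. The line 21 value of Trh is close to 0 and became -0.07 without centring, so its sign is not settled. No line 42 ES cells were used here, and a difference between the lines before sphere formation cannot be told apart from one that arose in spheres.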

How the results depend on the processing

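Each member kept its array apart from the other 4 by at least 2-fold under each of the 7 alternative scalings, filters, probe rules and fillings run on all arrays. The distance to the nearest array ran from 4.04 to 4.77 log2 units for Olig3, 3.38 to 3.96 for Bcl11a, 3.58 to 3.70 for Nefl, 2.68 to 2.91 for Trh, 3.72 to 4.42 for Igf2bp3 and 4.28 to 4.67 for Hesx1. With a pseudocount of 16 the genes with both line 21 derivatives 2-fold above or below the rest fell to 27 and 62, and genes 2-fold higher in reverted cells than in ES cells without 4OHT to 339. With the 60th percentile filter, which tests fewer genes, the latter count was 334 and that of genes higher in line 21 than line 42 spheres 508. The 1.5-fold threshold gave 199 and 304 genes and the 4-fold threshold 8 and 8. Leaving out 1 array in turn gave 54 to 284 genes above and 119 to 371 below, 3 to 9 neural-list genes above and 0 to 2 below, and 0 to 2 members with both derivatives above the rest. These were Nefl and Bcl11a without ES cells without 4OHT, Nefl and Trh without line 21 spheres, and Olig3 and Bcl11a without reverted cells; the last 2 settings leave 1 derivative array. limma called 0 genes under all 14 settings, with 690 to 1615 at an unadjusted p under 0.05 and smallest adjusted p-values of 0.0529 to 0.723. Dim probes such as Nefl in line 42 spheres limit the folds that rest on them. No paired analysis was possible because each culture has 1 array.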

Other observations

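Among genes lower in both line 21 derivatives, the metallothioneins, small metal-binding proteins, were among the most distant. Mt1 read 2511 in line 21 spheres and 1155 in reverted cells, against 13809 to 45110 on the other 3 arrays, a gap of 5.30-fold. Mt2 read 2777 and 2565 against 20191 to 46423 (7.01-fold). The other genes with the largest gaps in this direction were Rpl39l, a ribosomal protein paralog (33.7 and 208 against 1528 to 11706), Sohlh2, a germ cell bHLH gene (10.6 and 10.3 against 70.6 to 165), and Il17b, a cytokine gene (11.1 and 12.7 against 73.3 to 131).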
